A study of Tupaia belangeri chinensis with 12 samples.

Results

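In fetal cortex of Chinese tree shrews (Tupaia belangeri chinensis), small mammals close to primates, the outer subventricular zone (OSVZ) was compared with the inner subventricular zone (ISVZ) beneath it. The members are the 6 libraries whose titles carry these layer names, 3 of OSVZ and 3 of ISVZ, out of 12 in all. The other 6 libraries, 3 of the ventricular zone (VZ) and 3 of the cortical plate (CP), entered the fit to share its estimate of the spread. Each number from 1 to 3 in the titles occurs once in every layer and was used as a block, so each difference is the mean of 3 differences between libraries of the same number. All groups are untreated fetal cortex with no genotype given, labelled embryonic day 37, although the names of the deposited tables carry 35. The layers were cut by laser from Nissl-stained frozen sections, so a capture holds every cell and cell process within its outline. Whether the libraries of 1 layer stem from different animals is not in the labels, and p-values therefore measure the spread between libraries, which may be technical.

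The subventricular zone is the germinal layer in which intermediate progenitors divide and newborn neurons gather before they migrate to the cortical plate. In mammals with a large cortex it is split into an inner and an outer part, and the outer part holds outer radial glia, stem cells that keep a basal fibre and have lost their contact with the ventricle. Axons that enter and leave the cortex run through and above this region, and the RNA of neurons on their way outward is captured with that of the progenitors.

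Levels are given in scaled FPKM, that is fragments per kilobase of gene, relative to the mapped fragments of the library, as deposited, after 1 further scale factor per library between 0.947 and 1.06. Summed FPKM ran from 244666 to 276629 per library over the 12 libraries. Read depth is unknown, and the deposited bounds on each value, with a median half-width of 7.66% to 12.6% of the value, are the only measure of counting error. Identical values were found in 0 pairs of libraries.

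Of the 6 libraries, 2 stood apart from the others of their layer. OSVZ 3 had 27.4 for RELN, the secreted protein of Cajal-Retzius cells, against 2.90 and 3.99 in OSVZ 1 and 2. It had 37.5 for CALB2 (calretinin), against 3.50 and 5.36, and 42.3 for SLC32A1, the vesicular GABA transporter, against 4.20 and 6.84. ISVZ 1 was low in genes of the subpallium, the source of cortical interneurons. SP9, a transcription factor of that lineage, stood at 14.8 in ISVZ 1, against 79.3 and 54.7 in ISVZ 2 and 3. Over all genes tested, log2 levels of ISVZ 1 correlated by 0.973 and 0.969 with OSVZ 1 and 2, but by 0.962 and 0.961 with ISVZ 2 and 3. ISVZ 1 was thus closer to these OSVZ libraries than to its own layer. OSVZ 3 correlated by 0.947 and 0.955 with OSVZ 1 and 2, against 0.920 to 0.933 with the ISVZ libraries. The median absolute log2 difference between OSVZ and ISVZ was 0.33 for number 3, against 0.16 for number 1 and 0.18 for number 2. List medians are therefore also given by number or without single libraries where these move them, and the counts of calls without each library.

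Single genes of axons, synapses and the neuronal surface, among them DYNC1I1, SYN1 and CNTN2, were higher in OSVZ than in ISVZ, whereas the stem cell factor SOX2 and single genes of intermediate progenitors and of mitosis were lower. Most tested members of each gene list described here did not pass the test. With limma, 206 of 14101 genes (1.46%) passed an adjusted p of 0.05, 156 (1.11%) higher in OSVZ and 50 (0.355%) lower. At an unadjusted p under 0.05 there were 3244 of 14101 genes, 1833 higher in OSVZ and 1411 lower. The counts at an unadjusted p given for lists below are to be read beside these. The difference was at least 2-fold for 82 higher and 23 lower genes, on the scale of log2 of scaled FPKM plus 1, which understates the change of low genes. In bulk samples such as these, fewer cells of a type and less RNA per cell cannot be told apart.

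All 3 same-number differences had the direction of the call in each of the 156 higher and 50 lower genes. Choosing called genes largely fixes this in advance, because the test uses the mean of these same 3 differences. The median log2 difference of the higher genes was 0.84, 0.81 and 1.45 in numbers 1, 2 and 3, and number 3 gave the largest difference in 134 of them. For the lower genes the medians were -0.70, -0.80 and -1.29. Many calls lay close to the threshold, with an adjusted p over 0.04 in 100 of those higher and 37 of those lower. Without OSVZ 3 limma called 5 genes, and without ISVZ 1 it called 833. Leaving out OSVZ 1, ISVZ 2 or ISVZ 3 gave 4, 3 and 4 calls, and leaving out OSVZ 2 gave 95. In each of these fits the called genes that were still tested kept their direction, which their choice likewise largely fixes in advance.

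**Figure D1:**
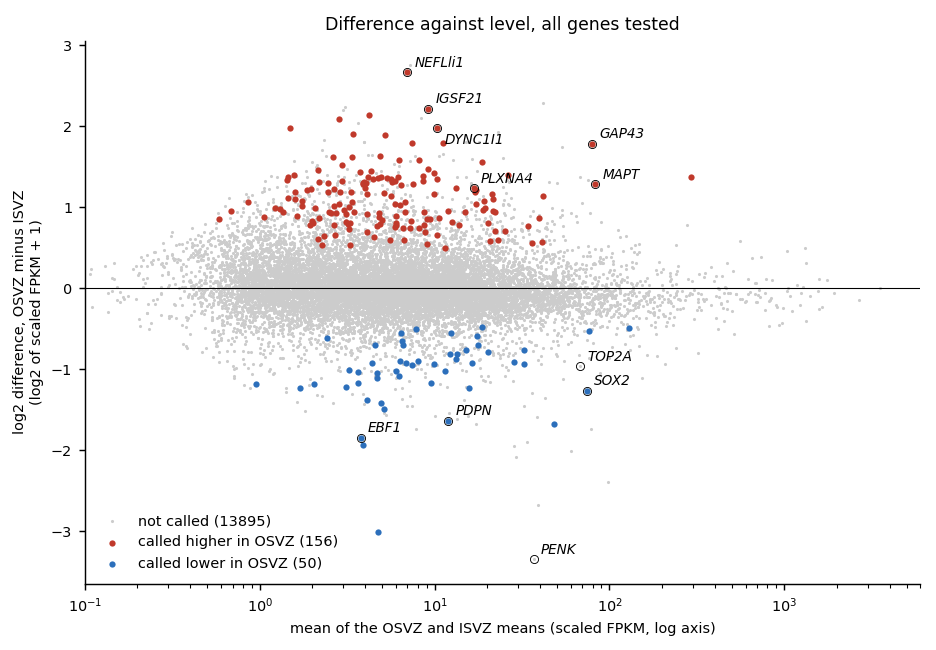
Log2 difference between OSVZ and ISVZ (vertical, log2 of scaled FPKM plus 1) against the mean of the 2 layer means (horizontal, scaled FPKM, log axis) for the genes tested; 17 genes below 0.1 are not drawn. Red points are the 156 genes called higher in OSVZ, blue points the 50 called lower, grey points those not called; circled genes are named in the text, and TOP2A and PENK among them were not called.

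The smallest adjusted p belonged to DYNC1I1 (chr6:100964038-101338314), the neuronal intermediate chain of the dynein motor that carries cargo along axons. It stood at 19.7, 14.1 and 17.8 in OSVZ 1 to 3, against 3.64, 3.31 and 3.76 in ISVZ 1 to 3. Every OSVZ library was above every ISVZ library, and the CP was far higher still, at 106 to 131. The log2 difference was 1.98 ± 0.15 (SE, n = 3 libraries each; limma, adjusted p = 0.00335). The call held in 24 of 26 alternative analyses, with adjusted p between 0.00075 and 0.0987.

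The larger differences among called genes included those of a receptor subunit, a synaptic adhesion protein, a heparan sulfate enzyme and a secreted ligand. GABRA5, the alpha 5 subunit of the GABA-A receptor, had 7.21, 3.47 and 7.42 in OSVZ, against 1.16, 0.62 and 0.67 in ISVZ (log2 difference 1.91 ± 0.18; limma, adjusted p = 0.00706). IGSF21, a synaptic adhesion protein, had 18.3, 9.75 and 19.4 in OSVZ, against 3.63, 1.498 and 2.62 in ISVZ (log2 2.22 ± 0.24; limma, adjusted p = 0.0144). In both genes the lowest OSVZ library, number 2, was above the highest ISVZ library. HS3ST2, a sulfotransferase of heparan sulfate, had 7.92, 4.60 and 3.11 in OSVZ, against 0.90, 0.016 and 0.39 in ISVZ (log2 2.09 ± 0.27; limma, adjusted p = 0.0216). NXPH3, a secreted ligand of neurexins, had 10.1, 8.52 and 3.95 in OSVZ, against 1.43, 0.32 and 0.91 in ISVZ (log2 2.14 ± 0.35; limma, adjusted p = 0.0394). Both were highest in OSVZ 1 and lowest in OSVZ 3 among the OSVZ libraries, and the groups did not overlap. In the CP, HS3ST2 averaged 6.32 and NXPH3 5.79, close to their OSVZ values.

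The list of genes for the growth cone and the neuronal cytoskeleton had 28 tested members, of which 6 were called higher (GAP43, CNTN2, NEFM, MAPT, L1CAM and KIF5C) and 0 lower (18 and 1 at an unadjusted p under 0.05, limma). The median log2 difference of the 28 members was 0.39, against -0.0034 over all genes tested. It was 0.39, 0.12 and 0.79 in numbers 1, 2 and 3, and 0.30 without OSVZ 3. In 18 members all OSVZ libraries were above all ISVZ libraries, against 12.9% of all genes tested. GAP43, a membrane protein of growing axons, had 80.5, 80.0 and 223 in OSVZ, against 32.1, 32.4 and 31.6 in ISVZ. The ISVZ libraries were nearly equal while OSVZ 3 was far above OSVZ 1 and 2, which were themselves above every ISVZ library. The log2 difference was 1.79 ± 0.33 (limma, adjusted p = 0.0447).

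MAPT, the axonal microtubule protein tau, had 106, 86.1 and 164 in OSVZ, against 50.3, 56.5 and 35.4 in ISVZ (log2 1.28 ± 0.24; limma, adjusted p = 0.0447). NEFM, the medium neurofilament chain, had 8.93, 3.49 and 8.45 in OSVZ, against 1.91, 1.58 and 2.38 in ISVZ (log2 1.35 ± 0.17; limma, adjusted p = 0.0216). Neither gene overlapped between the layers. The light chain NEFL is listed at 0 in every library, and a gene named as its copy, NEFLli1, had 7.78, 3.34 and 28.8 in OSVZ, against 0.67, 0.46 and 0.81 in ISVZ. That was the largest difference among called genes with a symbol (log2 2.67 ± 0.51; limma, adjusted p = 0.048), OSVZ 3 being the highest of all 12 libraries, and reads may have been divided between copies. The most abundant members did not pass. STMN1, the tubulin-binding protein stathmin, had 2193, 1997 and 1506 in OSVZ, against 1769, 2269 and 1874 in ISVZ, with a log2 difference of -0.063 (limma, adjusted p = 0.874). TUBB2A, a neuronal tubulin, had 1804, 1810 and 1839 in OSVZ, against 1524, 1974 and 1603 in ISVZ. Both overlapped between the layers.

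Of 25 tested genes of synaptic vesicle release, 4 were called higher (SYN1, SNCB, CPLX1 and PCLO) and 0 lower (21 and 0 at an unadjusted p under 0.05, limma). All 25 differences were above 0, with a median of 0.80. All OSVZ libraries were above all ISVZ libraries in 16 members, against 12.9% of all genes tested. The median was 0.43, 0.44 and 1.47 in numbers 1, 2 and 3, and 0.54 in the fit without OSVZ 3. SYN1, a protein that tethers synaptic vesicles, had 12.03, 9.81 and 23.4 in OSVZ, against 5.70, 5.20 and 3.35 in ISVZ (log2 1.42 ± 0.28; limma, adjusted p = 0.04997). OSVZ 3 was again the highest library. CPLX1, a complexin that clamps vesicle fusion, had 15.04, 10.4 and 9.61 in OSVZ, against 6.12, 6.56 and 4.16 in ISVZ (log2 0.94 ± 0.15; limma, adjusted p = 0.0379), and there OSVZ 1 was highest.

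Transmitter receptors and ion channels had 31 tested members, with 6 called higher, 0 lower (22 and 1 at an unadjusted p under 0.05, limma) and a median of 0.66. The median was 0.52 without OSVZ 3. SCN2A, a voltage-gated sodium channel of axons, had 5.90, 5.57 and 12.5 in OSVZ, against 2.33, 1.52 and 1.45 in ISVZ (log2 1.63 ± 0.24; limma, adjusted p = 0.0322). GLRA2, the glycine receptor subunit of the fetal brain, had 10.7, 9.64 and 16.0 in OSVZ, against 3.76, 2.66 and 1.93 in ISVZ (log2 1.79 ± 0.23; limma, adjusted p = 0.0216). KCND2, an A-type potassium channel, had 4.60, 5.86 and 7.16 in OSVZ, against 2.35, 1.59 and 0.84 in ISVZ (log2 1.43 ± 0.23; limma, adjusted p = 0.0394). None of the 3 overlapped, and OSVZ 3 was the highest OSVZ library in each. GABRA5 and the metabotropic glutamate receptor GRM5 were also among the called members. GABBR2, a subunit of the GABA-B receptor outside the list, was also called (log2 1.58 ± 0.26; limma, adjusted p = 0.0394). The more abundant GRIA1, an AMPA receptor subunit, went the other way without passing, at 87.5, 86.2 and 69.8 in OSVZ, against 89.1, 129 and 72.0 in ISVZ.

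Cadherins and adhesion molecules had 36 tested members, with 4 called higher (NTM, OPCML and CDH12 among them), 0 lower (16 and 1 at an unadjusted p under 0.05, limma) and a median of 0.43. The median was 0.34, 0.18 and 0.91 in numbers 1, 2 and 3, and 0.30 without OSVZ 3. OPCML and NTM belong to the IgLON family of neuronal surface proteins. OPCML had 12.6, 10.3 and 9.84 in OSVZ, against 6.18, 3.37 and 2.67 in ISVZ (log2 1.29 ± 0.14; limma, adjusted p = 0.0172). NTM had 11.9, 10.96 and 15.1 in OSVZ, against 5.07, 4.45 and 3.73 in ISVZ (log2 1.33 ± 0.18; limma, adjusted p = 0.0257). The OSVZ libraries lay close together in both genes and above every ISVZ library. CDH12, a classical cadherin, had 1.71, 1.43 and 1.86 in OSVZ, against 0.43, 0.42 and 0.51 in ISVZ (log2 0.87 ± 0.14; limma, adjusted p = 0.0394). CDH13, the most abundant member that did not pass, had 53.8, 63.0 and 72.5 in OSVZ, against 54.0, 63.4 and 58.5 in ISVZ.

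**Figure D2:**
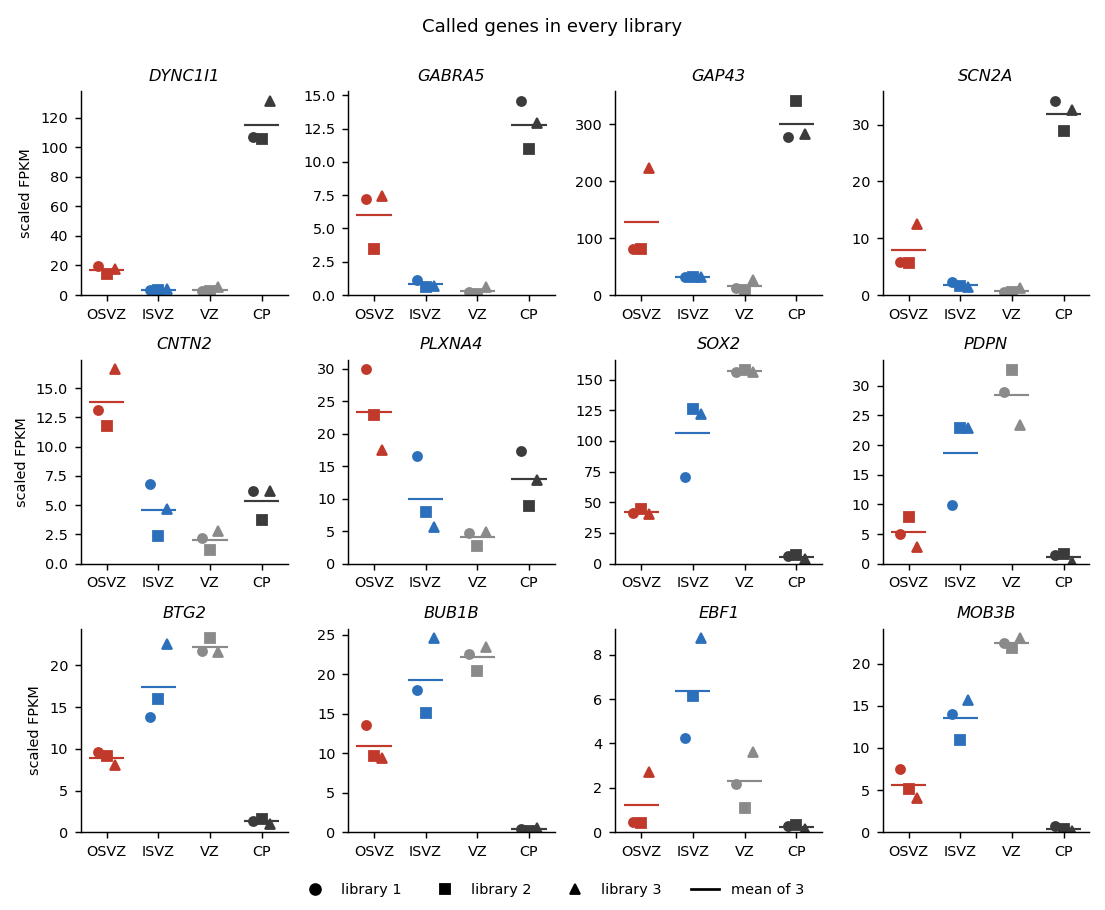
Scaled FPKM (vertical, linear, each panel with its own scale) of 12 called genes in OSVZ, ISVZ, VZ and CP; symbols mark libraries 1 to 3 and lines the mean of 3. The first 6 genes are higher in OSVZ than in ISVZ, and in CNTN2 and PLXNA4 every OSVZ library is above all 9 others; the last 6 are lower in OSVZ than in ISVZ.

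Most called genes placed the OSVZ between the ISVZ and the CP. Of the 156 higher genes, 134 had a CP mean above the OSVZ mean, 19 had one between the 2 zones and 3 had one below the ISVZ. Of the 50 lower genes, 44 had a CP mean below the OSVZ mean and 37 a VZ mean above the ISVZ mean. These positions were read from the means, with no test, and were not counted over all genes tested.

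In 8 called genes all 3 OSVZ libraries were above all 9 other libraries, and in 0 called genes were they below. Over all genes tested these counts were 79 and 77, against 93 for ISVZ above all others, 1481 for VZ and 1891 for CP. CNTN2 (chr17:54081917-54120682), an adhesion protein of outgrowing cortical axons, had 13.1, 11.8 and 16.6 in OSVZ and 6.84, 2.36 and 4.63 in ISVZ, and did not exceed 6.24 in the CP or 2.82 in the VZ. PLXNA4 (chr6:53614078-54083391), a semaphorin receptor of axons, had 29.9, 22.8 and 17.4 in OSVZ, against 16.5, 7.91 and 5.63 in ISVZ. Its lowest OSVZ value, in OSVZ 3, was just above the highest CP value of 17.4 and the highest ISVZ value of 16.5, both in libraries numbered 1. The log2 differences were 1.47 ± 0.18 for CNTN2 (limma, adjusted p = 0.02) and 1.24 ± 0.24 for PLXNA4 (limma, adjusted p = 0.04997).

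The others of the 8 were NGFR, the low-affinity neurotrophin receptor, MCF2L, a guanine nucleotide exchange factor, FRMPD3, HS6ST2li1, TSORFli1147 and MT-ND1-AS-1. NGFR had 4.69, 1.58 and 3.26 in OSVZ, against 1.47, 0.19 and 0.65 in ISVZ, and no CP library exceeded 0.10. MCF2L had 27.0, 24.8 and 25.0 in OSVZ, against 19.9, 11.5 and 8.11 in ISVZ, with 18.5 as the highest CP value. The OSVZ values of MCF2L were nearly equal, and the ISVZ values spread widely.

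TSORFli1147 (chr2:46592216-46592413) is a gene of unknown function inside TMA7li1; it had 3.42, 2.12 and 3.45 in OSVZ and is listed at 0 in the 9 other libraries. An exact 0 can be a failed estimate in these tables, where GAPDH, which every cell uses, is also listed at 0. MT-ND1-AS-1 (chr14:2961481-3454255), named as an antisense gene and chosen here after its values were seen, had 361, 440 and 432 in OSVZ, against 164, 260 and 90.7 in ISVZ (log2 1.38 ± 0.27; limma, adjusted p = 0.04997). The sources used here do not say whether counting used strand, so reads of an antisense gene and of its partner cannot be told apart.

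Genes that mark classes of neurons gave few calls. Newborn and migrating neurons had 1 of 21 members called higher and 0 lower (9 and 0 at an unadjusted p under 0.05, limma), with a median of 0.39. Upper-layer neurons had 1 of 17 called higher and 0 lower (6 and 2 at an unadjusted p under 0.05, limma), with a median of 0.23. The 2 called genes were RBFOX1, a neuronal splicing regulator with 26.2, 26.4 and 26.1 in OSVZ against 15.3, 13.1 and 8.397 in ISVZ (log2 1.08 ± 0.20; limma, adjusted p = 0.0456), and PLXNA4. DCX, the microtubule protein of migrating neurons, had 276, 297 and 198 in OSVZ, against 236, 334 and 219 in ISVZ. STMN2, a tubulin-binding growth cone protein of the list of newborn neurons, had 761, 811 and 925 in OSVZ, against 531, 796 and 599 in ISVZ (limma, adjusted p = 0.298). Both overlapped between the layers. The upper-layer median was 0.44 without OSVZ 3.

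Several genes of axons and migration also had higher OSVZ values without passing; NRP1 and SEMA3C were picked out after their values were seen. NRP1, a semaphorin receptor, had 17.2, 18.5 and 14.8 in OSVZ, against 14.7, 4.78 and 5.28 in ISVZ (limma, adjusted p = 0.0554). SEMA3C, a secreted semaphorin, had 40.8, 42.2 and 26.3 in OSVZ, against 23.3, 9.28 and 5.90 in ISVZ (limma, adjusted p = 0.105). CNR1, the cannabinoid receptor of growing axons, had 104, 126 and 89.1 in OSVZ, against 71.0, 31.9 and 30.7 in ISVZ (limma, adjusted p = 0.0692). In all 3 genes the layers did not overlap, and ISVZ 1 was the ISVZ library closest to the OSVZ. The axon guidance list as a whole had 1 of 40 members called higher and 0 lower (11 and 3 at an unadjusted p under 0.05, limma). Its median was 0.12, or 0.024 without ISVZ 3. EPHA3 and EPHA5, its most abundant members that did not pass, overlapped between the layers. Their log2 differences were 0.23 and -0.049 (limma, adjusted p of 0.458 and 0.92).

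Deep-layer neurons had 0 of 18 members called by limma (5 higher and 4 lower at an unadjusted p under 0.05), with a median of 0.21, or 0.36 without ISVZ 1. TBR1, a transcription factor of deep-layer and newborn neurons, had 27.9, 29.2 and 24.8 in OSVZ, against 18.5, 16.4 and 14.8 in ISVZ, and 19.2 to 37.1 in the CP. Its layers did not overlap, but the log2 difference of 0.69 ± 0.29 did not pass (limma, adjusted p = 0.19), and its locus in the tables overlaps other genes. BCL11B, which is also a gene of striatal neurons, went the other way, at 7.34, 10.8 and 15.9 in OSVZ against 14.2, 30.5 and 31.8 in ISVZ (limma, adjusted p = 0.0527).

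Subplate neurons, the early neurons beneath the cortical plate, had 14 tested members, with 1 called higher, 1 called lower (6 and 2 at an unadjusted p under 0.05, limma) and a median of 0.80. The median was 0.40, 0.50 and 0.94 in numbers 1, 2 and 3, and 0.44 without OSVZ 3; SST and RELN, which were high in OSVZ 3, belong to the list. PDE1A, a cyclic nucleotide phosphodiesterase, was higher, with 4.37, 3.49 and 5.57 in OSVZ against 1.22, 0.64 and 0.49 in ISVZ (log2 1.62 ± 0.20; limma, adjusted p = 0.021). SVIL, the actin-binding protein supervillin, was lower, with 0.44, 0.96 and 1.05 in OSVZ against 1.47, 4.42 and 4.004 in ISVZ (log2 -1.18 ± 0.22; limma, adjusted p = 0.0475). Neither gene overlapped. CPLX3 and NR4A2, subplate markers in mouse picked out after their values were seen, were highest in OSVZ 1. CPLX3 had 10.2, 5.41 and 1.58 in OSVZ, against 0.75, 0 and 0.096 in ISVZ (limma, adjusted p = 0.068), and NR4A2 14.1, 4.49 and 2.73 in OSVZ, against 1.79, 1.09 and 0.72 in ISVZ (limma, adjusted p = 0.138).

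**Figure D3:**
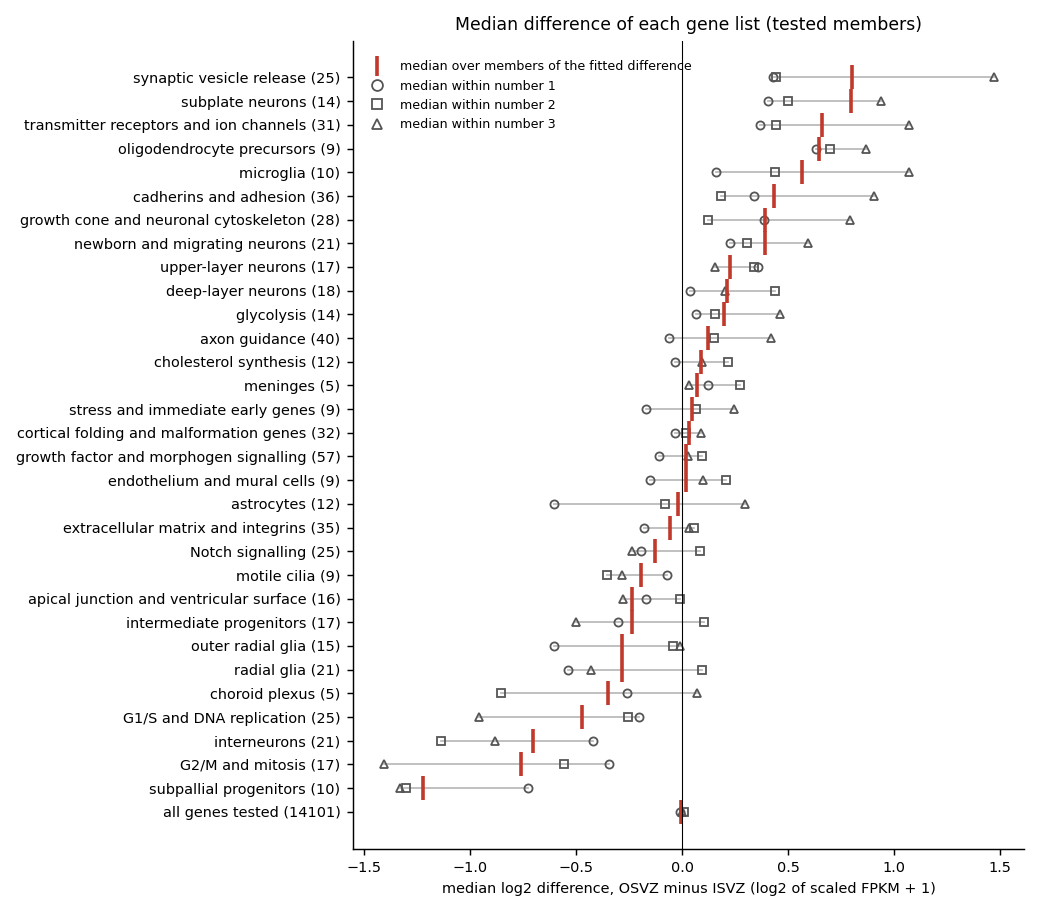
Median log2 difference between OSVZ and ISVZ (horizontal, log2 of scaled FPKM plus 1) of the tested members of each gene list with at least 5, their number in brackets, and of all genes tested (bottom row). Red bars are medians of the fitted differences and open symbols medians within numbers 1, 2 and 3; synaptic vesicle release lies at 0.80, to the right of 0, whereas G2/M (-0.76) and interneurons (-0.70) lie to the left.

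Radial glia had 21 tested members, with 0 called higher, 1 called lower (1 and 6 at an unadjusted p under 0.05, limma) and a median of -0.28; 15 differences were below 0. The median was -0.54, 0.096 and -0.43 in numbers 1, 2 and 3, so number 2 had the opposite sign, and it was -0.095 without ISVZ 1. The called gene was SOX2 (chr1:1392649-1395155), the transcription factor that maintains neural stem cells. SOX2 had 40.9, 44.8 and 40.8 in OSVZ, against 70.8, 126 and 122 in ISVZ. The OSVZ libraries were nearly equal and below every ISVZ library, the VZ stood at 156 to 158 and the CP at 3.92 to 6.68. The log2 difference was -1.27 ± 0.21 (limma, adjusted p = 0.0397). PAX6, a second core factor of radial glia, overlapped, with 18.6, 14.4 and 13.4 in OSVZ against 27.5, 12.7 and 18.6 in ISVZ (log2 -0.27 ± 0.21; limma, adjusted p = 0.467). SLC1A3, the glial glutamate transporter, had 57.4, 71.6 and 61.3 in OSVZ, against 114, 73.6 and 87.5 in ISVZ (limma, adjusted p = 0.296).

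Markers of outer radial glia, described in human and other primate cortex, had 15 tested members, of which limma called 0 higher and 1 lower (2 and 4 at an unadjusted p under 0.05), with a median of -0.28. That median rested on number 1, with -0.60, -0.043 and -0.0076 in numbers 1, 2 and 3, and was -0.084 without ISVZ 1. HOPX, the most used of these markers, was low in both zones, with 0.92, 0.34 and 1.13 in OSVZ and 2.92, 0.89 and 0.76 in ISVZ, against 3.23 to 3.83 in the VZ. The 2 zones overlapped (limma, adjusted p = 0.435). PDPN, the membrane protein podoplanin, was the called gene, with 5.06, 7.89 and 2.86 in OSVZ against 9.94, 22.9 and 22.9 in ISVZ (log2 -1.64 ± 0.32; limma, adjusted p = 0.04997). PTN, a secreted heparin-binding growth factor, had 70.1, 149 and 81.7 in OSVZ, against 146, 164 and 177 in ISVZ, and 406 to 510 in the VZ (limma, adjusted p = 0.0941). OSVZ 2 stood above the other OSVZ libraries in both PDPN and PTN. Of the 15 differences 4 were above 0, the largest being that of SDC3, the proteoglycan syndecan 3, which was picked out after its values were seen. SDC3 had 40.6, 40.2 and 77.8 in OSVZ, against 33.1, 24.2 and 22.8 in ISVZ (limma, adjusted p = 0.0609).

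Intermediate progenitors had 17 tested members, with 0 called higher, 2 called lower (1 and 5 at an unadjusted p under 0.05, limma) and a median of -0.23. The median was -0.30, 0.10 and -0.50 in numbers 1, 2 and 3, again with the opposite sign in number 2, and it was -0.065 without ISVZ 1 and -0.098 without OSVZ 3. Both called genes are linked to the exit from the cell cycle. BTG2, an antiproliferative gene of neurogenic progenitors in mouse, had 9.63, 9.15 and 8.02 in OSVZ, against 13.8, 16.0 and 22.5 in ISVZ (log2 -0.87 ± 0.17; limma, adjusted p = 0.04997). GADD45G, a growth arrest gene, had 22.6, 24.3 and 24.0 in OSVZ, against 38.0, 34.1 and 52.5 in ISVZ (log2 -0.77 ± 0.13; limma, adjusted p = 0.0409). The OSVZ libraries of both were close together and below all ISVZ libraries. EOMES, the defining transcription factor of these progenitors, overlapped, with 55.1, 38.4 and 38.9 in OSVZ against 74.7, 31.9 and 56.6 in ISVZ (log2 -0.23 ± 0.19; limma, adjusted p = 0.507). In the VZ it had 66.8, 41.9 and 63.1, and in the CP it did not exceed 0.37. The marker of intermediate progenitors was thus present in both zones and in the VZ, and nearly absent from the CP. HES6, a regulator of neurogenesis, had 161, 131 and 107 in OSVZ, against 199, 218 and 301 in ISVZ, without overlap and without passing (limma, adjusted p = 0.0609).

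Genes of the dividing cell had lower OSVZ values throughout, with 1 call. Of 17 tested G2/M and mitosis genes, 0 were called higher and 1 lower, while all 17 differences were below 0, with a median of -0.76, and 14 members did not overlap, against 11.5% of all genes tested. All 17 had an unadjusted p under 0.05 with limma. The median was -0.34, -0.56 and -1.41 in numbers 1, 2 and 3, and -0.57 without OSVZ 3. BUB1B, a kinase of the spindle checkpoint, had 13.6, 9.68 and 9.42 in OSVZ, against 18.1, 15.2 and 24.6 in ISVZ (log2 -0.76 ± 0.15; limma, adjusted p = 0.04997). TOP2A, topoisomerase II of dividing cells, had 60.2, 41.8 and 34.3 in OSVZ, against 79.4, 67.3 and 122.7 in ISVZ (limma, adjusted p = 0.0647). MKI67, the proliferation marker Ki-67, had 28.0, 15.2 and 14.3 in OSVZ, against 31.1, 21.9 and 44.1 in ISVZ (limma, adjusted p = 0.0939). In TOP2A and MKI67 the highest OSVZ library was OSVZ 1 and the highest ISVZ library ISVZ 3; MKI67 overlapped and TOP2A did not. TPX2, HMGB2 and ANLN of this list are listed at 0 in all 6 libraries and were not tested.

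Of 25 tested genes of G1/S and DNA replication, limma called 0 (18 lower and 0 higher at an unadjusted p under 0.05). All 25 differences were below 0, with a median of -0.47. The median was -0.20, -0.25 and -0.96 in numbers 1, 2 and 3, and -0.34 without OSVZ 3. All OSVZ libraries were below all ISVZ libraries in 12 members, against 11.5% of all genes tested. MCM7, a subunit of the replicative helicase, had 58.1, 50.5 and 46.4 in OSVZ, against 70.4, 59.4 and 81.9 in ISVZ (log2 -0.44; limma, adjusted p = 0.117). The layers did not overlap in MCM7.

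Signalling and matrix genes gave no call with limma. Notch signalling had 0 of 25 members called (4 higher and 5 lower at an unadjusted p under 0.05) and a median of -0.13. Its receptor NOTCH1, picked out after its values were seen, had 9.06, 7.27 and 7.10 in OSVZ, against 15.8, 9.48 and 15.2 in ISVZ (limma, adjusted p = 0.0609), and its modifier MFNG 21.7, 20.2 and 20.0 in OSVZ, against 32.2, 32.3 and 46.9 in ISVZ (limma, adjusted p = 0.0599). Neither overlapped. Extracellular matrix and integrins had 0 of 35 called by limma (2 higher and 5 lower at an unadjusted p under 0.05), with a median of -0.057. Growth factors and morphogens had 0 of 57 called (8 higher and 9 lower at an unadjusted p under 0.05), with a median of 0.02.

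Genes linked to cortical folding or its malformations had 1 of 32 tested members called higher and 0 lower (7 and 5 at an unadjusted p under 0.05, limma), with a median of 0.034. The called gene was KIF5C, a kinesin heavy chain of neurons, with 45.4, 46.7 and 61.1 in OSVZ against 36.3, 24.9 and 22.7 in ISVZ (log2 0.86 ± 0.17; limma, adjusted p = 0.04997). CCNB1IP1, after which the series is titled, lay below the filter on low values, with 0.044, 0 and 0.060 in OSVZ and 0.075, 0.022 and 0.023 in ISVZ. These values are too low for a comparison. TRNP1, a nuclear protein that affects folding in mouse and ferret and was picked out after its values were seen, had 3.17, 2.30 and 9.94 in OSVZ, against 2.66, 1.75 and 1.40 in ISVZ, OSVZ 3 alone standing apart (limma, adjusted p = 0.209).

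Genes outside the lists made up 132 of the 156 higher and 44 of the 50 lower calls. Among the higher ones were HPCAL4, a neuronal calcium sensor (log2 1.89 ± 0.37), ARHGDIG, a GDP dissociation inhibitor (1.79 ± 0.31), and FAM163B (1.62 ± 0.24), with limma adjusted p of 0.04997, 0.0409 and 0.0322. HPCAL4 and ARHGDIG were highest in OSVZ 3, with 17.2 against 5.59 and 4.43 in OSVZ 1 and 2 for HPCAL4, and 31.8 against 11.5 and 11.7 for ARHGDIG.

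Among the lower ones, EBF1, a transcription factor of striatal neurons in mouse, had 0.47, 0.44 and 2.72 in OSVZ, against 4.25, 6.13 and 8.73 in ISVZ (log2 -1.84 ± 0.30; limma, adjusted p = 0.0389). FOXP1, a transcription factor of cortical and striatal neurons, had 0.091, 0.052 and 0.45 in OSVZ, against 1.92, 1.97 and 1.25 in ISVZ (log2 -1.18 ± 0.24; limma, adjusted p = 0.04997). KITLG, the ligand of the receptor KIT, had 1.502, 2.18 and 2.53 in OSVZ, against 4.19, 12.9 and 6.52 in ISVZ (log2 -1.42 ± 0.25; limma, adjusted p = 0.0409). None of the 3 overlapped, and EBF1 and FOXP1 were highest in OSVZ 3 among the OSVZ libraries.

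Other lower genes of the rule were TSORFli2448, NUPR1, DCXR, MOB3B, MAP3K20, PLEKHG1, RNASEH2B and LIX1, with log2 differences between -1.94 and -1.01. LIX1 was 1.34, 2.92 and 1.33 in OSVZ, against 3.58, 5.46 and 4.91 in ISVZ, and 14.0 to 29.3 in the VZ.

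Markers of other cell types moved with the comparison, and their part in the results was not tested. Of 10 tested genes of subpallial progenitors limma called 0 (0 higher and 6 lower at an unadjusted p under 0.05), and 9 of 10 differences were below 0, with a median of -1.22. Their summed level was 145 to 201 in OSVZ and 221 to 451 in ISVZ, and 0 of the 11 found were at 0 in all 6 libraries. Interneurons had 0 of 21 called (0 higher and 11 lower at an unadjusted p under 0.05) and a median of -0.70, with a summed level of 206 to 487 in OSVZ and 317 to 880 in ISVZ, none of them at 0 throughout. DLX1, a transcription factor of both lists, had 25.2, 46.0 and 26.6 in OSVZ, against 44.7, 175 and 156 in ISVZ (log2 -1.74 ± 0.42; limma, adjusted p = 0.0627). PENK, an opioid peptide of striatal neurons, was picked out after its values were seen. It was counted above in the list of intermediate progenitors and is in neither the subpallial nor the interneuron list. PENK had 0.60, 2.09 and 14.8 in OSVZ, against 7.24, 92.9 and 104 in ISVZ (log2 -3.34 ± 0.87; limma, adjusted p = 0.0708). ISVZ 1 was the low library of its layer in both DLX1 and PENK. In number 1 the median difference of the subpallial list was -0.73, against -1.30 and -1.33 in numbers 2 and 3. EBF1, FOXP1 and BCL11B above are also genes of striatal neurons in mouse, but FOXP1 and BCL11B are genes of cortical neurons too. In the CP, FOXP1 had 2.55, 0.83 and 1.28 and BCL11B 9.96, 8.545 and 14.0, while EBF1 did not exceed 0.31. Whether the lower values of these genes are related was not tested.

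Some interneuron genes and the Cajal-Retzius genes were highest in OSVZ 3, while other interneuron genes were not. NPY, a peptide of interneurons, had 21.1, 62.9 and 34.4 in OSVZ, against 51.8, 44.4 and 89.2 in ISVZ, and GAD2, an enzyme of GABA synthesis picked out after its values were seen, 2.86, 4.66 and 12.7 in OSVZ, against 5.73, 30.6 and 36.5 in ISVZ. SST, the peptide somatostatin, had 18.6, 48.6 and 152 in OSVZ, against 13.4, 39.3 and 40.1 in ISVZ (limma, adjusted p = 0.427). The 7 Cajal-Retzius genes found summed to 6.76, 9.82 and 75.9 in OSVZ, against 6.47, 7.37 and 8.77 in ISVZ, with 2 of them tested and 0 called by limma. At an unadjusted p under 0.05 there were also 0. Among the OSVZ libraries, neuronal genes such as GAP43, SYN1 and NEFLli1 were also highest in OSVZ 3. In the fit without that library, the lists of vesicle release and channels had medians of 0.54 and 0.52. Whether these neuronal genes and the markers are related was not tested.

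Genes of microglia and of oligodendrocyte precursors mostly had higher OSVZ values, with 1 call. Microglia had 1 of 10 tested genes called higher and 0 lower (7 and 0 at an unadjusted p under 0.05, limma). All 10 differences were above 0, with a median of 0.56. The median was 0.16, 0.44 and 1.07 in numbers 1, 2 and 3, and 0.42 without OSVZ 3. The summed level of the microglia genes was 35.7 to 38.7 in OSVZ and 14.98 to 30.1 in ISVZ, lowest in ISVZ 3. In the VZ it was 31.5 to 38.5, near the OSVZ values. TMEM119 was at 0 in all 6 libraries. C1QC, a chain of complement C1q, was the called gene, with 1.46, 4.12 and 2.66 in OSVZ, against 0.64, 0.56 and a value next to 0 in ISVZ, and 1.65 to 2.61 in the VZ (log2 1.39 ± 0.24; limma, adjusted p = 0.0409). C1QB overlapped, at 6.30, 7.88 and 8.01 in OSVZ against 6.59, 4.78 and 3.16 in ISVZ, and TYROBP, a signalling adaptor of microglia, did not, at 5.38, 5.82 and 7.14 in OSVZ against 4.13, 4.26 and 3.005 in ISVZ. Both missed the threshold (limma, adjusted p of 0.153 and 0.141).

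Oligodendrocyte precursors had 0 of 9 tested genes called by limma (6 higher and 1 lower at an unadjusted p under 0.05) and a median of 0.64, with 0.63, 0.70 and 0.87 in numbers 1, 2 and 3. Their summed level of 64.3 to 115 in OSVZ overlapped that of 65.2 to 85.4 in ISVZ, and 0 of the 12 found were at 0 throughout. OLIG2, a marker of these cells, overlapped, with 16.2, 26.8 and 25.8 in OSVZ against 19.8, 16.2 and 21.6 in ISVZ (limma, adjusted p = 0.704). The 3 markers OLIG1, PDGFRA and SOX10, picked out after their values were seen, did not overlap. OLIG1 had 21.9, 30.7 and 31.7 in OSVZ, against 13.02, 6.25 and 4.48 in ISVZ (log2 1.80 ± 0.38; limma, adjusted p = 0.0527). PDGFRA, the growth factor receptor of the precursors, had 5.91, 7.31 and 9.09 in OSVZ, against 3.46, 1.88 and 1.76 in ISVZ (limma, adjusted p = 0.0599). SOX10 had 2.30, 2.65 and 3.62 in OSVZ, against 1.06, 0.82 and 0.50 in ISVZ (limma, adjusted p = 0.0567). In all 3 the highest value was in OSVZ 3 and the highest ISVZ value in ISVZ 1. S100B went against the list, with 6.33, 29.3 and 15.2 in OSVZ against 19.7, 31.0 and 50.5 in ISVZ.

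**Figure D4:**
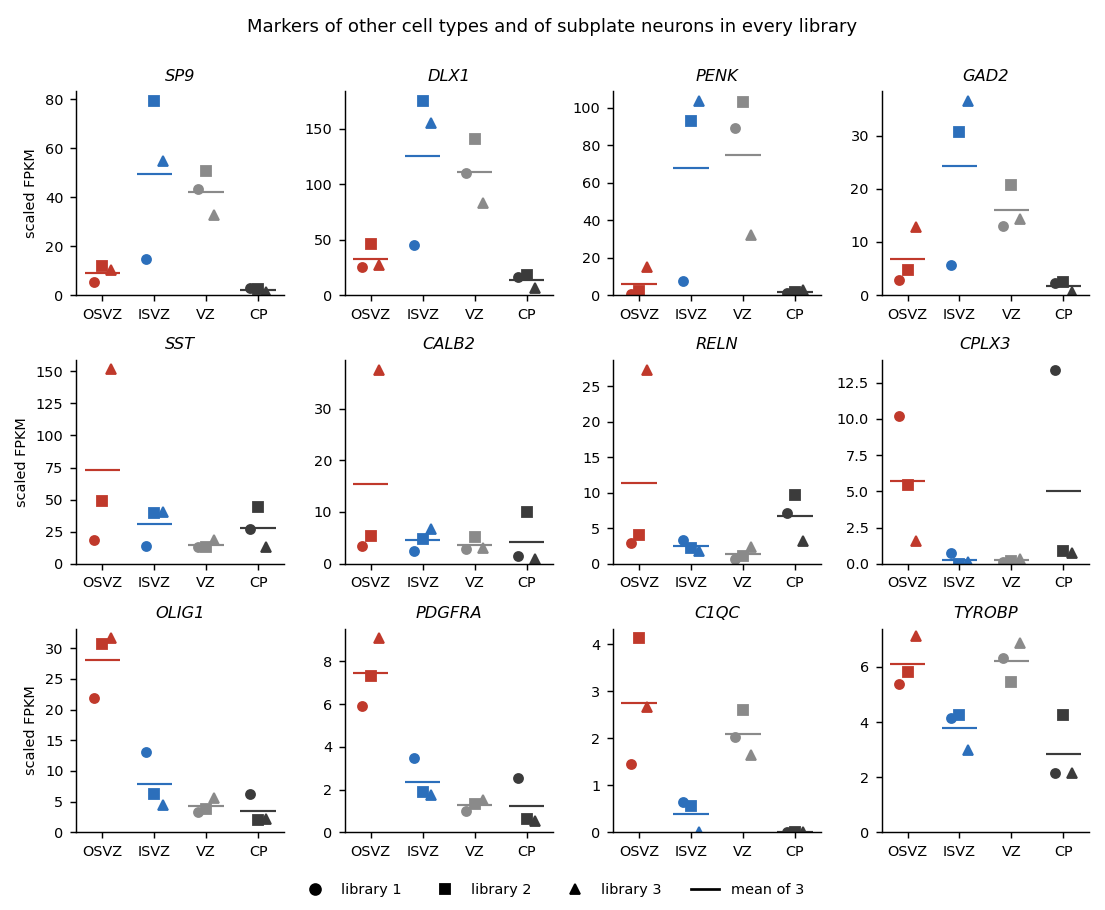
Scaled FPKM (vertical, linear, each panel with its own scale) of genes of subpallial and interneuron lineages (SP9, DLX1, PENK, GAD2, SST, CALB2), of RELN and the subplate gene CPLX3, and of oligodendrocyte precursors and microglia (OLIG1, PDGFRA, C1QC, TYROBP); symbols mark libraries 1 to 3 and lines the mean of 3. ISVZ 1 lies far below ISVZ 2 and 3 in the first 4 panels, and OSVZ 3 far above the other OSVZ libraries in SST, CALB2 and RELN. PENK was counted in the list of intermediate progenitors.

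Other lists gave 0 calls with limma. At an unadjusted p under 0.05 the counts higher and lower were 0 and 1 of 12 for astrocytes, 0 and 0 of 9 for endothelium and mural cells, 0 and 0 of 5 for meninges, 1 and 0 of 5 for choroid plexus, 0 and 0 of 2 for erythroid cells and 0 and 1 of 9 for motile cilia. They were 1 and 1 of 16 for the apical junction, 4 and 0 of 14 for glycolysis, 2 and 0 of 12 for cholesterol synthesis and 1 and 0 of 9 for stress genes. Summed levels overlapped between the layers in each of these lists except the apical junction, with 134 to 148 in OSVZ and 150 to 179 in ISVZ. The astrocyte median was -0.49 without OSVZ 3, against -0.019 with it; APOE, a lipid carrier of that list, had 35.5, 92.2 and 162 in OSVZ, against 61.0, 114 and 56.9 in ISVZ. TTR, the defining gene of the choroid plexus, had 5.53, 3.85 and 0.14 in OSVZ, against 14.8, 48.4 and 0.12 in ISVZ.

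**Figure D5:**
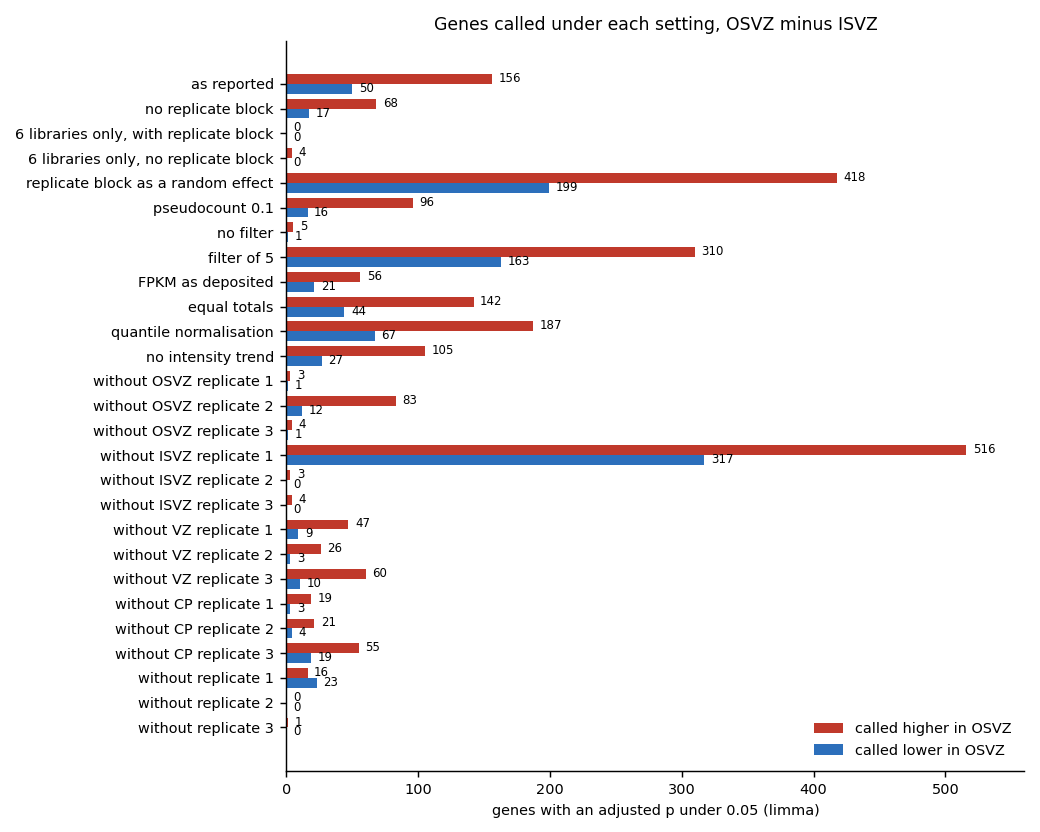
Number of genes with an adjusted p under 0.05 (horizontal; limma) called higher (red) and lower (blue) in OSVZ under each setting (rows). The reported fit calls 156 and 50, the fit without ISVZ 1 calls 516 and 317, and the 6 libraries alone with the block call 0 and 0.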

How the data were processed

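Poly(A)-selected RNA from laser-captured layers was sequenced, per the labels' protocols. The authors deposited 1 table of FPKM per library with the columns of a Cufflinks gene table, per the file headers. The submitters' processing notes list HISAT2 and Cufflinks. No source used here gives versions, genome build, annotation or use of strand, and coordinates are those of the tables.

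Entries of 1 gene ID were summed (360 IDs), and 4 IDs with a failed status were left out. Libraries were scaled by the median of their ratios to the geometric mean profile over 10200 genes. The 14101 genes at 1 or more in at least 3 of 12 libraries were tested; 1158 antisense genes, 1833 genes with a copy name and genes that overlap another are uncertain. limma 3.58.1 in R 4.3.3 was run on log2 of scaled FPKM plus 1, with layer and replicate number over 12 libraries, 6 residual degrees of freedom, an intensity trend and Benjamini-Hochberg adjustment over all genes tested (two-sided, threshold 0.05). It was tested on simulated data. Differences are OSVZ minus ISVZ ± SE. The 34 lists name 700 genes; 657 are in the tables and 569 were tested, with 0 tested mitochondrial transcripts.

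The comparison, the lists and the rule for named genes were chosen with earlier results of these data known. The rule took, among called genes with a symbol whose libraries do not overlap, the 15 largest and 15 smallest differences, up to 4 called and 2 other members of each list, up to 8 called genes with the OSVZ above or below all other libraries, and 6 check genes. Outside it lie SLC32A1, SP9, BCL11B, GRM5, L1CAM, GAPDH, NEFL and those said to be picked out after their values were seen. Some genes of the rule are not reported here. Alternatives changed the block, libraries, pseudocount, filter, scaling and trend.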

Additional observations from a re-analysis of the deposited data

How the results depend on the processing

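The numbers of calls depended on the settings. Each called gene that was still tested kept its direction in all 26 alternatives, which the choice of called genes largely fixes in advance. Against 206 calls (156 higher, 50 lower), limma gave 85 (68 and 17) with no replicate block, 81 of them shared. It gave 617 (418 and 199) with the replicate block as a random effect, 0 (0 and 0) with 6 libraries only and the block, where 2443 genes had an unadjusted p under 0.05, and 4 (4 and 0) with 6 libraries and no block. The counts were 112 (96 and 16) with a pseudocount of 0.1, 6 (5 and 1) with no filter, 473 (310 and 163) with a filter of 5, 77 (56 and 21) on FPKM as deposited, and 132 with 27 lower without the intensity trend. Equal totals and quantile normalisation stayed within 1.5 times. Leaving out a library or a number gave 0 to 833 calls, 0 to 516 higher and 0 to 317 lower. The lowest counts came without number 2 (0 calls; 2428 genes at an unadjusted p under 0.05) and number 3 (1 call); without number 1 there were 39, 16 higher and 23 lower. Leaving out a VZ or CP library gave 22 to 74. The cause of these changes was not tested; fits with fewer libraries also have fewer degrees of freedom.

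Neither the labels nor the deviations of every OSVZ and ISVZ pair show that the numbers pair the samples. Deviations from the layer means correlated by 0.35, 0.15 and 0.083 across genes between OSVZ and ISVZ libraries numbered 1, 2 and 3, and 5 of the 6 libraries correlated best with their own number, OSVZ 3 being the exception. Over all 4 layers, 18 of 18 same-numbered pairs correlated above 0 and 16 above 0.1, as a hint from the data and not from the design. Of 36 differently numbered pairs, 8 correlated above 0. That count is no independent comparison. The 3 deviations of a layer sum to 0, so positive same-numbered pairs push the other pairs below 0. The block was kept because it defines the comparison. Of the 53 called genes followed through the alternatives, 26 kept their call with no replicate block and 0 kept it in all 26 alternatives. Without single libraries or numbers, the log2 difference of SLC32A1 ran from -1.02 to 0.68, below 0 without OSVZ 3, ISVZ 1 or number 3, and that of CALB2 from -0.105 to 1.65, below 0 without OSVZ 3. Neither gene was called. Low genes are limited by the unknown depth.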
